A study of Gossypium hirsutum with 7 samples.

Results

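CHS2 and DFR are the flavonoid genes examined here, an early and a late step of a single pathway. The array carried 5 probe sets for them, 4 annotated to CHS2 and 1 to DFR, out of 23977 cotton probe sets. They were taken as every probe set whose only annotated gene has CHS2 (LOC107927759) or DFR (LOC107957957) as its RefSeq synonym, without regard to signal.

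RNA came from whole ovules of cotton, Gossypium hirsutum, excised at 0 dpa (days post anthesis), when fibre cells begin to grow out of the ovule epidermis. The 7 samples, each on its own 1-colour Affymetrix array, were 2 wild-type samples, 2 from plants in which GhHD-1, a homeodomain gene, was silenced and 3 from GhHD-1 over-expression plants. The question of the study was which genes GhHD-1 may regulate at fibre initiation. The labels used here name neither the construct and its promoter nor the number of transgenic lines. GhHD-1 itself was not analysed here, since the annotation ties no probe set to it, so the targeted gene does not check the labels. The labels call the samples biological replicates. An ovule extract pools epidermis, fibre initials, integument and nucellus, so fewer cells of a type and less RNA per cell cannot be told apart.

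Chalcone synthase, the enzyme CHS2 encodes, joins coumaroyl-CoA with malonyl-CoA and so commits carbon to flavonoids. Dihydroflavonol 4-reductase, encoded by DFR, acts later, on the branch that leads to anthocyanins and to proanthocyanidins, the tannins of seed coats and of brown cotton fibre. In Arabidopsis the late genes of this branch, DFR among them, are switched on by a complex of MYB, bHLH and WD-repeat proteins, and some of these proteins also act in trichome formation.

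Array medians lay between 7.61 and 7.72 log2 units and the lowest 5% of probe sets below 3.5 to 3.67, so values near 4 stand at the floor. The wild-type arrays correlated across probe sets at r = 0.981, less than wild-type replicate 2 with over-expression replicate 3 (0.992) or wild-type replicate 1 with silenced replicate 1 (0.987). Over-expression replicates 1 and 2 were also loose, at 0.985, below over-expression replicate 1 with wild-type replicate 2 (0.991), while the silenced pair reached 0.997. Probe sets added as poly-A spikes before labelling averaged 8.78 on wild-type replicate 2 and 5.28 to 6.95 on the other 6 arrays. Each difference of CHS2 or DFR from wild type is therefore also given against either wild-type array alone. On housekeeping controls the 3′ minus 5′ signal, a sign of RNA integrity, lay between 1.49 and 1.75 on all 7 arrays.

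The 4 CHS2 probe sets were drawn from 3 expressed sequence tags. Ghi.1837.1.A1_at and Ghi.1837.1.S1_x_at share a tag and carry the letters A and S that mark opposite strands. Which of them faces the CHS2 transcript was not established. Ghi.10134.2.A1_s_at and Ghi.10134.3.S1_s_at, from separate tags, also carry A and S, and their orientation was not established either. Of the 5 probe sets for both genes, 4 end in _s_at or _x_at, suffixes for sets whose probes may match more than 1 transcript, so the A and D copies of this allotetraploid, and chalcone synthase paralogs, may be mixed in 1 value.

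DFR was bright on all 7 arrays and lowest in silenced ovules, although no difference passed the test. Its probe set Ghi.9795.1.S1_s_at read 12.93 and 13.23 in wild type, 12.77 and 12.53 in silenced ovules, and 13.24, 13.06 and 13.17 in over-expression ovules. Both silenced arrays lay below the 5 others, with a gap of 0.16 between the higher silenced array and the lowest of the others. Silenced arrays lay wholly below wild type at 21.8% of all probe sets. The wild-type and over-expression ranges overlapped, as at all but the 14.5% of probe sets with over-expression wholly above and the 9.81% with it wholly below. At this brightness only 0.413% to 1.38% of the probe sets on an array were brighter, and whether the signal was near saturation was not tested.

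DFR averaged 12.65 ± 0.17 in silenced ovules (SD, n = 2), 13.08 ± 0.21 in wild type (SD, n = 2) and 13.16 ± 0.09 in over-expression (SD, n = 3). Over-expression exceeded silenced ovules by 0.51 log2 units (SE 0.14, 95% interval 0.18 to 0.84), a 1.42-fold difference, with a p of 0.00842 in the limma fit and an adjusted p of 0.234. All 3 over-expression arrays were above the silenced mean, and the exact permutation test gave a two-sided p of 0.1, the smallest it can give for 3 against 2 arrays. Silenced ovules differed from wild type by -0.43 (SE 0.15, 95% interval -0.79 to -0.07), wild type being 1.35-fold higher, with a p of 0.0255 in the limma fit and an adjusted p of 0.279. Against wild-type replicate 1 alone this difference was -0.28 and against replicate 2 alone -0.58. Over-expression differed from wild type by 0.07 (95% interval -0.26 to 0.40, adjusted p = 0.848), or 0.22 against wild-type replicate 1 alone and -0.08 against replicate 2 alone.

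These separations were common on the arrays. Silenced arrays lay below all 5 others at 9.95% of probe sets (2386 of 23977), and over-expression arrays lay wholly above silenced ones at 17.8%. An unadjusted limma p under 0.05 was reached by 12.1% of probe sets between over-expression and silenced, by 14.5% between silenced and wild type and by 10.4% between over-expression and wild type. Fitting array weights was the only alternative setting under which DFR passed in any comparison (difference 0.52, adjusted p = 0.0407, over-expression against silenced). That setting called 5.04% of all probe sets. Its weights were 0.464 for both wild-type arrays and 1.81 for both silenced arrays, so they did not rank the arrays of a pair.

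**Figure D1:**
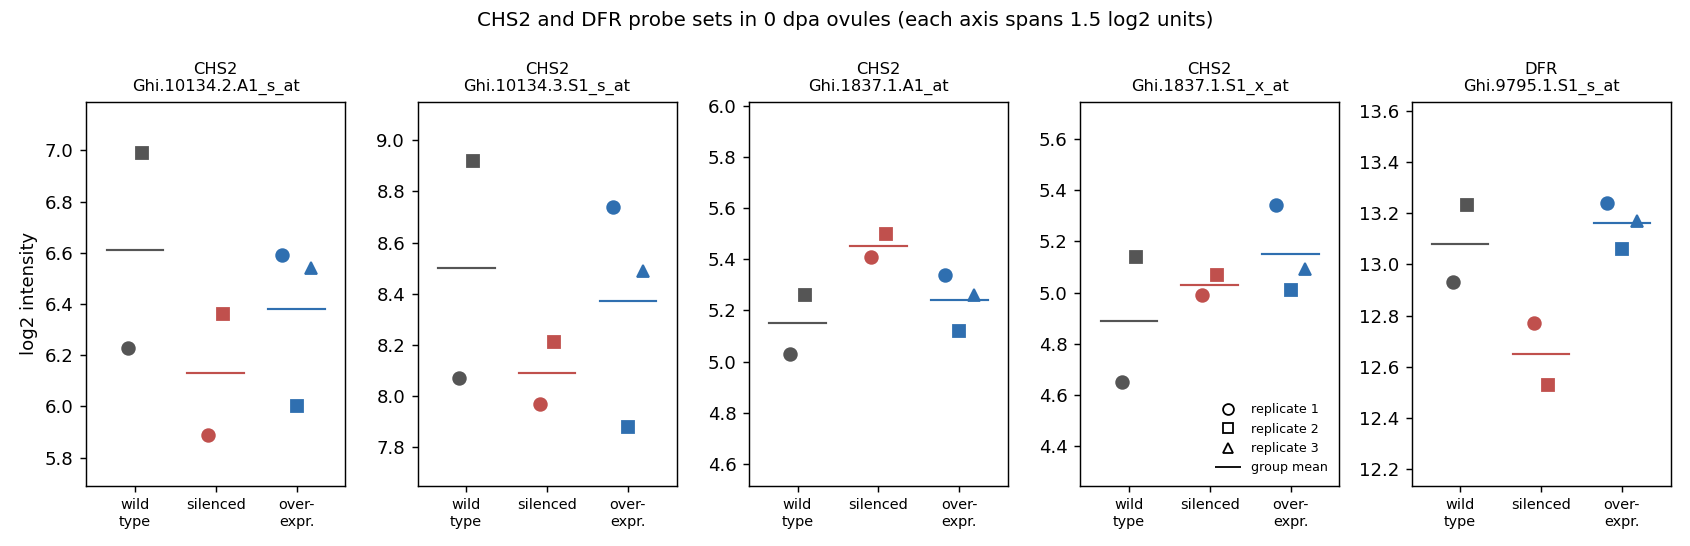
Log2 intensity (vertical axis, 1.5 units in each panel) of the 4 CHS2 probe sets and the DFR probe set by group; each symbol is 1 array, its shape gives the replicate and the line is the group mean. DFR lies at 12.53 and 12.77 on the silenced arrays and at 12.93 or above on the others, while the brighter CHS2 sets overlap among the groups.

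The brighter pair of CHS2 probe sets differed more between replicates of wild type and of over-expression than between group means. Silenced replicates lay closer together, 0.24 apart at Ghi.10134.3.S1_s_at and 0.47 apart at Ghi.10134.2.A1_s_at. The brightest probe set, Ghi.10134.3.S1_s_at, read 8.07 and 8.92 in wild type, 7.97 and 8.21 in silenced ovules, and 8.74, 7.88 and 8.49 in over-expression ovules. Ghi.10134.2.A1_s_at read 6.23 and 6.99, then 5.89 and 6.36, then 6.59, 6.0 and 6.54 in the same order of groups. Both sets were highest on wild-type replicate 2, next highest on over-expression replicates 1 and 3, and low on over-expression replicate 2 and silenced replicate 1. All 3 groups overlapped.

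The paired sets followed each other from array to array, with r = 0.96 over 7 arrays and r = 0.96 again for deviations from the group means, given as a description, since both may read the same transcripts. Their residual SD within groups was 0.44 for Ghi.10134.3.S1_s_at and 0.39 for Ghi.10134.2.A1_s_at, larger than at 94.4% and 92.5% of all probe sets, whose median was 0.17. The wild-type arrays alone differed by 0.85 and 0.76 log2 units at these sets, 1.80-fold and 1.69-fold, where the median absolute gap over all probe sets was 0.23. DFR, with a residual SD of 0.15, varied less within groups than these CHS2 sets.

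With this spread, silenced ovules differed from wild type by -0.41 at Ghi.10134.3.S1_s_at (SE 0.35, 95% interval -1.24 to 0.42, adjusted p = 0.609). The corresponding difference was -0.49 at Ghi.10134.2.A1_s_at (SE 0.31, 95% interval -1.23 to 0.25, adjusted p = 0.504). Against wild-type replicate 1 alone they were 0.02 and -0.11, and against replicate 2 alone -0.83 and -0.87, so the choice of wild-type array set their size and, at the first, their sign. The intervals hold changes of more than 2.0-fold downward as well as none, and a difference of that size was not resolved.

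Over-expression differed from wild type by -0.13 at Ghi.10134.3.S1_s_at (95% interval -0.88 to 0.63, adjusted p = 0.891) and by -0.24 at Ghi.10134.2.A1_s_at (95% interval -0.91 to 0.44, adjusted p = 0.756). Against wild-type replicate 1 alone both were positive, at 0.30 and 0.14, and against replicate 2 alone they were -0.55 and -0.62. Leaving out over-expression replicate 2 also turned Ghi.10134.3.S1_s_at, to 0.12. Between the transgenic groups the differences were 0.28 (95% interval -0.47 to 1.04, adjusted p = 0.794) and 0.25 (95% interval -0.43 to 0.93, adjusted p = 0.797), over-expression being higher. With 1 array left out they ranged from 0.10 to 0.53 and from 0.02 to 0.48.

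The dimmer CHS2 probe sets did not share this order of groups. Ghi.1837.1.A1_at read 5.03 and 5.26 in wild type, 5.41 and 5.50 in silenced ovules, and 5.34, 5.12 and 5.26 in over-expression ovules. Its silenced arrays were the highest of the 7, above all others as at 9.52% of probe sets (above wild type alone at 23.6%, above over-expression alone at 16.1%), where the brighter sets had their lowest group mean. Silenced minus wild type was 0.31 (SE 0.14, 95% interval -0.01 to 0.63, adjusted p = 0.363), or 0.42 and 0.20 against wild-type replicates 1 and 2 alone, and over-expression minus silenced was -0.22 (adjusted p = 0.560). Over-expression minus wild type was 0.09 (adjusted p = 0.777), or 0.21 and -0.02 against these arrays alone.

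Ghi.1837.1.S1_x_at read 4.65 and 5.14 in wild type, 4.99 and 5.07 in silenced ovules, and 5.34, 5.01 and 5.09 in over-expression ovules. Its lowest value was wild-type replicate 1, and the groups overlapped. The differences were 0.14 for silenced against wild type, 0.25 for over-expression against wild type and 0.11 between the transgenic groups, with adjusted p of 0.755, 0.582 and 0.857. Against wild-type replicate 1 alone the first pair were 0.38 and 0.50, and against replicate 2 alone -0.10 and 0.01. The last ranged from 0.02 to 0.19 with 1 array left out. Over the 7 arrays r with Ghi.10134.3.S1_s_at was 0.18 at Ghi.1837.1.A1_at and 0.64 at Ghi.1837.1.S1_x_at. For deviations from group means r was 0.99 and 0.93, given as a description. Those deviations have 4 residual degrees of freedom, and in a group of 2 arrays they mirror each other.

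**Figure D2:**
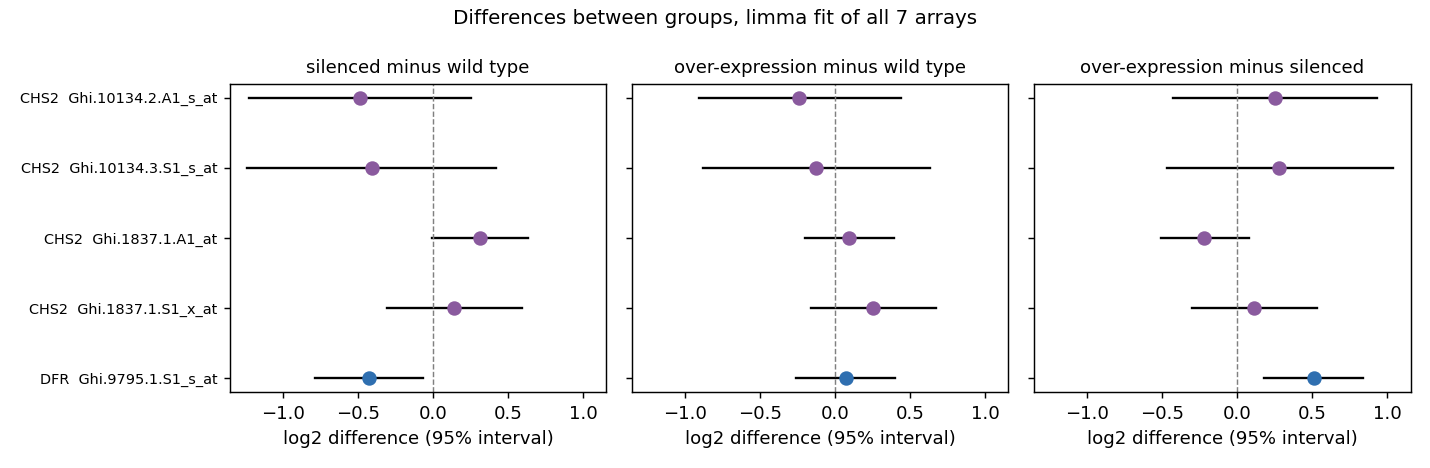
Log2 differences between groups (horizontal axis) from the limma fit of 7 arrays for each CHS2 and DFR probe set; points are estimates and bars 95% intervals. Only the DFR intervals against silenced ovules leave out 0, before adjustment, and the CHS2 sets point both ways in silenced minus wild type.

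Of the 5 probe sets, limma thus called 0 in each comparison after Benjamini-Hochberg adjustment over all probe sets. The test itself called 0.0% of all probe sets between silenced and wild type, 0.00417% between over-expression and wild type and 0.0209% between over-expression and silenced. A test for any difference among the 3 groups called 0.0167% (4 probe sets) and 0 of the 5, with DFR at an adjusted p of 0.289 and CHS2 sets at 0.465 to 0.733. Unadjusted p under 0.05 in that test was reached by DFR alone of the 5, and by 14.1% of all probe sets.

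Across arrays the mean of the 4 CHS2 probe sets and DFR had r = 0.48 (exact permutation p = 0.274, two-sided, n = 7) and rho = 0.64 (exact permutation p = 0.139). Without the wild-type arrays, the farthest from the CHS2 median, r was 0.35 over the remaining 5. This was 1 relation, so no adjustment was made, and groups of 2 or 3 arrays are too small for a value within a group. Over-expression replicate 1 and wild-type replicate 2 were highest in both genes. The exceptions were silenced replicate 2, with the lowest DFR at a middling CHS2 mean of 6.29, and over-expression replicate 2, where CHS2 stood at 6.0 while DFR stayed at 13.06.

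**Figure D3:**
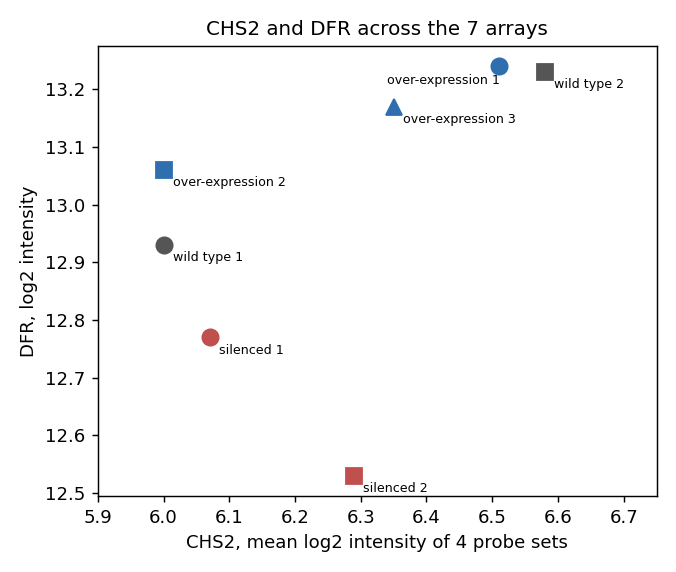
DFR log2 intensity (vertical axis) against the mean log2 intensity of the 4 CHS2 probe sets (horizontal axis), 1 point per array, with colour for the group and shape for the replicate. DFR is lowest on the silenced arrays at CHS2 means of 6.07 and 6.29, between those of the other arrays.

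Other enzyme genes of the phenylpropanoid and flavonoid routes were taken from a list of symbols, and the annotation held 4, each with 1 probe set. Limma called 0 of 4 in each comparison. CHS6, a further chalcone synthase gene, read 4.60 and 5.61 in wild type, 4.80 and 4.72 in silenced ovules, and 5.28, 5.71 and 5.9 in over-expression ovules. Over-expression exceeded silenced ovules by 0.87 (SE 0.31, adjusted p = 0.326). The arrays of these groups did not overlap, with over-expression wholly above as at 17.8% of all probe sets, while wild-type replicate 1 was the lowest of all arrays. CHS6 was dim, at 4.60 to 5.90 over the 7 arrays. CHS3, of the same enzyme family, read 8.18 and 8.07, then 7.60 and 7.98, then 7.37, 8.47 and 8.05, with differences between groups of -0.34 to 0.17 (adjusted p of 0.651 to 0.879).

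The chalcone synthase genes were not ordered alike among replicates. Over-expression replicate 2, which was lowest for Ghi.10134.3.S1_s_at, was highest for CHS3, and over-expression replicate 1, second highest for that CHS2 set, was lowest for CHS3. CHS6 was highest on over-expression replicate 3. CCR1, cinnamoyl-CoA reductase of the lignin branch, averaged 7.75 in silenced ovules, 8.42 in wild type and 8.24 in over-expression, with adjusted p of 0.449 or more. CCoAMOT2, a methyltransferase gene of the same branch, averaged 8.14, 8.12 and 8.08 in that order, with adjusted p of 0.965 or more.

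**Figure D4:**
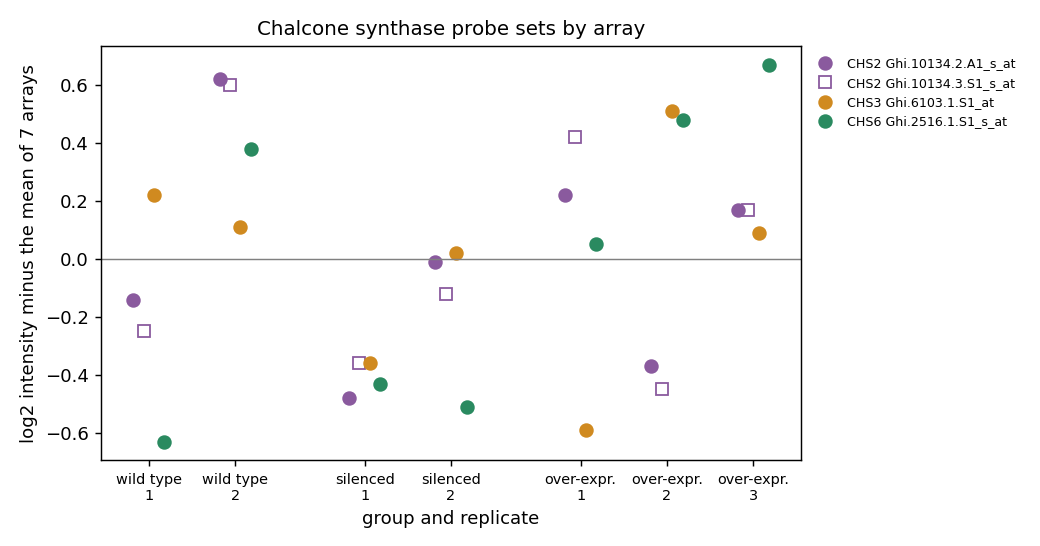
Log2 intensity minus the mean of the 7 arrays (vertical axis) for the brighter CHS2 probe sets, CHS3 and CHS6, by group and replicate (horizontal axis). Both CHS2 sets lie at -0.37 and -0.45 on over-expression replicate 2, where CHS3 and CHS6 lie at 0.51 and 0.48.

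Among MYB, bHLH and WD-repeat genes, the families from which regulators of DFR come in other plants, limma called 0 of 11 probe sets in each comparison. Their median was 0.05 for silenced against wild type, 0.07 for over-expression against wild type and 0.29 for over-expression against silenced, beside 0.02, 0.02 and 0.01 over all probe sets. GHTTG1, a WD-repeat gene, read 9.79 and 9.64 in wild type, 9.39 and 9.40 in silenced ovules, and 9.68, 9.68 and 9.72 in over-expression ovules. Like DFR it was lowest on both silenced arrays, as were 9.95% of all probe sets. Over-expression minus silenced was 0.29 at GHTTG1 (SE 0.10, adjusted p = 0.319). The set named MYB5/MYB6 had the same low silenced arrays, at 9.64 and 9.67 against 9.83 to 10.33 elsewhere (over-expression minus silenced 0.48, adjusted p = 0.313). GHMYB36 differed by 0.45 (adjusted p = 0.325) and bHLH110D by 0.50 (adjusted p = 0.325) in that comparison. MYB1 had the opposite sign (-1.78, adjusted p = 0.135), as had the set named MYB (-1.41, adjusted p = 0.455). Against wild type MYB1 was 1.45 higher in silenced ovules (adjusted p = 0.190) and bHLH110D 0.74 higher in over-expression (adjusted p = 0.407), and neither passed.

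Markers and controls moved with some of these values. Broadly expressed translation genes, 8 probe sets, averaged 11.67 to 11.91 on the silenced arrays, 11.94 to 12.08 on over-expression and 11.88 to 12.09 on wild type. Over-expression minus silenced was above 0 at all 8 (0.04 to 0.60, median 0.18, 0 called), beside 12673 of all 23977 probe sets. Silenced minus wild type was below 0 at 7 of the 8 (-0.60 to 0.11, 0 called), beside 47.6% of all probe sets. DFR, at 0.51 and -0.43, lay within both ranges, and only an EF1A7/EF1A8 set moved more. Silenced replicate 2 was lowest in this list, as it was in DFR. The 12 fibre marker probe sets averaged 8.05 and 8.46 in wild type, 8.24 and 8.19 in silenced ovules, and 8.56, 8.15 and 8.44 in over-expression, so wild-type replicate 2 and over-expression replicates 1 and 3 were highest there, as in the brighter CHS2 sets. Of the fibre markers 0 of 12 were called in each comparison. Silenced minus wild type was below 0 at 4 of them and above 0 at 8, while 47.6% of all probe sets were below 0. Both silenced arrays were the lowest at EXPA1 and at HOX3, as at 9.95% of all probe sets. EXPA1 read 8.26 and 8.11 there and 8.34 or more elsewhere, and HOX3 9.94 and 10.06 against 10.16 or more. Sets near the floor included Rac13 (3.77 to 4.10), a CelA1 set (3.51 to 4.51) and a TubA4 set (3.45 to 3.64). Embryo markers, 6 probe sets, averaged 6.36 to 6.68 over the arrays with 0 called, and 3 of them stayed under 4.5 on every array. The part of these lists in the DFR and CHS2 values was not tested.

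Among 319 other named probe sets, those most like the CHS2 mean over 7 arrays were Anx1, an annexin (r = 0.915), GalT1 (0.913), RPL37A, a ribosomal protein (0.902), AOX1 (0.897) and Pel (0.836). Of these AOX1, at 4.11 to 4.32, lay near the floor, and Pel, at 3.86 to 5.26, reached down to it. The CHS2 mean itself includes the dimmer CHS2 sets, at 4.65 to 5.34 and 5.03 to 5.50. The profiles most like DFR belonged to PAP10 (r = 0.921), the expansins EXPA1 (0.902) and EXPA4 (0.892), GHMYB36 (0.890) and NAC7 (0.877). These ranks describe 7 arrays of 3 genotypes: 86 probe sets of all 23977 reached the r of Anx1 with CHS2, and 168 reached that of PAP10 with DFR.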

How the data were processed

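The authors deposited log2 intensities, 1 value per probe set and array, for 7 arrays of 1 sample each, from 2.27 to 14.55. The submitters' processing notes name RMA, limma and R 2.7.1, with no role or order. RMA equalises array distributions, which removes any global shift between groups, and it compresses low signals. No genome build is named and no coordinates are given.

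The table held 24132 probe sets; 103 AFFX and 52 RPTR controls were set apart and 23977 were tested with no filter. The platform annotation gave 697 probe sets 1 gene, 46 several and 23234 none; all 697 matched RefSeq (Gossypium_hirsutum_v2.1), and 324 of them carried a gene name. No name was taken from a probe set with several genes.

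Group differences came from limma (version 3.58.1, R 4.3.3), with a mean per group fitted over the 7 arrays (lmFit and eBayes, 4 residual and 3.01 prior degrees of freedom), two-sided, adjusted by Benjamini-Hochberg over all probe sets at 0.05, with a moderated F for any difference. The fit was checked on simulated data with equal spread at every probe set and larger changes than those at CHS2 or DFR. That check does not bear on differences as small as theirs. The number of arrays limits the precision. Limma p-values set each difference against the spread between samples of a group, moderated over all probe sets. Whether that spread includes variation between transgenic lines is not known, since the labels do not give their number. Exact permutation p-values came from all arrangements of the arrays.

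Members and lists were chosen with earlier results of these data known. Named genes were all CHS2 and DFR probe sets, the pathway list (enzyme symbols), at most 6 regulators with the smallest F p, and the 5 named profiles with the highest r to each gene; the spelling CCoAMOT2 was read as CCoAOMT. Leaf markers had no annotated member. The alternatives comprised a replicate block, fitting only the compared groups, a trend or robust prior, array weights, cyclic loess, median centring, the brighter probe sets alone and leaving out each array.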

Additional observations from a re-analysis of the deposited data

How the results depend on the processing

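Of 216 recomputed differences at CHS2 and DFR, 208 kept their direction and side of the threshold, 7 changed sign and 1 passed. Many could not change sign, since settings such as the robust prior leave group means unchanged. All 67 recomputed F tests kept their side. The 7 sign changes all came from leaving out 1 array. Silenced minus wild type ranged from -0.83 to 0.02 (without wild-type replicate 2) at Ghi.10134.3.S1_s_at and from -0.10 (without replicate 1) to 0.38 at Ghi.1837.1.S1_x_at. Over-expression minus wild type ranged from -0.62 to 0.14 at Ghi.10134.2.A1_s_at and from -0.55 to 0.30 at Ghi.10134.3.S1_s_at, the upper values being without wild-type replicate 2, and the latter was 0.12 without over-expression replicate 2. It ranged from -0.02 to 0.21 at Ghi.1837.1.A1_at and from -0.08 to 0.22 at DFR, the lower values being without wild-type replicate 1. The 1 pass was DFR between over-expression and silenced ovules with array weights (0.52, adjusted p = 0.0407), the 1 of the 5 called under any setting; its adjusted p lay between 0.0407 and 0.902 over all alternatives and its difference between 0.39 and 0.62. With Ghi.1837.1.A1_at alone in place of the CHS2 mean, r with DFR was -0.47 (exact permutation p = 0.285), and with the 2 brighter sets, chosen after the data were seen, 0.59 (exact permutation p = 0.162). Dropping 1 array gave r between 0.32 and 0.81.

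The counts over all probe sets moved widely, and the cause was not tested. For silenced against wild type the count of 0 was 7 with a robust prior and 0 to 73 with 1 array left out (73 without wild-type replicate 1, 35 without replicate 2). For over-expression against wild type the count of 1 was 0 with the replicate block, the fit of only the groups compared, array weights, cyclic loess or the brighter sets alone, and 0 to 475 with 1 array left out (475 without wild-type replicate 2). For over-expression against silenced the count of 5 was 0 with the replicate block, 9 with median centring, 238 in the fit of only these groups, 1209 with array weights, 3 over the brighter sets alone and 0 to 238 with 1 array left out (238 without either wild-type array, 37 without over-expression replicate 2). For any difference the count of 4 was 0 with the replicate block, 7 with a robust prior, 350 with array weights and 0 to 386 with 1 array left out (386 without wild-type replicate 2, 50 without replicate 1). A fit that leaves a lone array assumes that it varies like the other groups.

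Pairing by replicate number could not be decided, since deviations in a group of 2 arrays mirror each other. Same-numbered deviations correlated at 0.10 (wild type, silenced), 0.15 and 0.05 (silenced, over-expression), and -0.31 and -0.22 (wild type, over-expression). With the replicate block DFR differed by 0.50 between over-expression and silenced (adjusted p = 0.581). Only 2 of the 5 probe sets lay among the probe sets brighter than the median, DFR and Ghi.10134.3.S1_s_at.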

Other observations

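With the 2 brighter CHS2 probe sets in place of all 4, a choice made after the values were seen, the most similar of 319 named profiles was GalT1 (r = 0.984 over 7 arrays, as high at 4 of all probe sets), which spanned only 6.10 to 6.62. It was followed by GhCASPL2A1 (0.913), XTH1 (0.904), AOX1 (0.883) and 14-3-3L (0.879). GalT1 and AOX1 were among the 5 nearest with either average, AOX1 lying near the floor at 4.11 to 4.32. The MYB gene myb109, also chosen after its values were seen and known from fibre initiation in cotton, read 5.61 and 6.86 in wild type, 6.45 and 6.18 in silenced ovules, and 7.07, 5.6 and 7.18 in over-expression ovules. Its low arrays, wild-type replicate 1 and over-expression replicate 2, were also low in the brighter CHS2 sets. Silenced replicate 1, low in those CHS2 sets too, was not low at myb109, where it read 6.45. The differences of myb109 between groups were 0.08 to 0.38 with adjusted p of 0.791 or more in the limma fit.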
